A study of Homo sapiens with 18 samples.

Results

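Cells of the P line of the BRAF-mutant human melanoma line A375 were compared after dabrafenib plus trametinib (P_DT) and after the vehicle DMSO (P_DMSO). The comparison rests on 4 of the 18 samples of the series, chosen by their titles, with 2 libraries in each group. Of the 60595 genes in the table that holds them, 15577 reached 1 FPKM or more in at least 2 of these 4 libraries and were tested. FPKM counts fragments per length of transcript and per size of library, so that levels of different genes can be set side by side. The drugs were given together, dabrafenib at 250 nM and trametinib at 10 nM, and the labels do not give the duration of treatment. Both groups are labelled with the genotype WT, and the labels state neither that the P line is a single clone nor whether the replicates came from different cultures, and the spread behind the p-values may thus be technical. P is taken to mean the parental line. The R line, taken as its drug-resistant counterpart, was sequenced after the same drugs (R_DT) and after vehicle (R_DMSO), also as 2 libraries each. These R libraries were used to estimate the spread and, near the end, to ask whether the response differed between the lines. The study set out to obtain transcriptional signatures that depend on the histone demethylase LSD1 and on the AP-1 subunit FOSL1 in resistant melanoma.

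Dabrafenib inhibits mutant BRAF and trametinib inhibits MEK, the kinase that BRAF activates and that in turn activates ERK. ERK induces genes of growth and division, such as MYC and the D-type cyclins, and it also induces its own antagonists, the DUSP phosphatases and the Sprouty proteins, so that their mRNAs are read as a gauge of pathway activity. In melanoma cells the pathway is also known to hold down lineage genes under MITF and SOX10, and drug-treated cells are known for passing through neural crest-like states.

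The P_DT libraries lay close together and the P_DMSO libraries far apart. Across 9543 protein-coding genes that averaged at least 5 FPKM, Pearson's r across genes was 0.980 between P_DT 1 and P_DT 2 and 0.925 between P_DMSO 1 and P_DMSO 2. Over all 15577 genes tested, the difference was at least 2-fold for 593 genes between the P_DT libraries. Between the P_DMSO libraries it was so for 1937 genes, of which 1609 were lower in P_DMSO 1. Among the 12442 protein-coding genes tested, the counts were 188 and 1229. After quantile normalization 1812 genes lay 2-fold apart between the P_DMSO libraries, of which 1119 were lower in P_DMSO 1. The P_DMSO difference followed the base composition of the transcripts. The 9543 protein-coding genes were put in equal groups by GC content, from the 1909 with the lowest content to the 1909 with the highest. Over these groups the median of P_DMSO 1 minus P_DMSO 2 went from 0.24 to -0.76 on the log2 scale, and that of P_DT 1 minus P_DT 2 from 0.04 to -0.13. The median of P_DT minus P_DMSO went from -0.11 to 0.52 over the same groups, from 0.01 to 0.13 without P_DMSO 1 and from -0.23 to 0.90 without P_DMSO 2. The share of genes called higher was 8.64% in the lowest group and 25% in the highest, and the share called lower was 15.1% in the lowest and 5.45% in the highest. What set the P_DMSO libraries apart was not tested, and calls were therefore also counted in fits that left out each of the 4 libraries in turn. The 4 libraries held 15314, 15293, 14304 and 15001 genes at 1 FPKM or more (P_DT 1, P_DT 2, P_DMSO 1 and P_DMSO 2). Low values of single-transcript genes fell near whole fragments, within 0.15 of a step, for 64.8% in P_DMSO 1, at about 10600000 fragments, and for 38.1% to 40.4% in the other 3. At a fixed step 30% would do so if values were evenly spread. The step was chosen in each library for the largest share, so evenly spread values can exceed 30%. Shares of 38.1% to 40.4% are thus not read as whole-fragment steps.

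**Figure D1:**
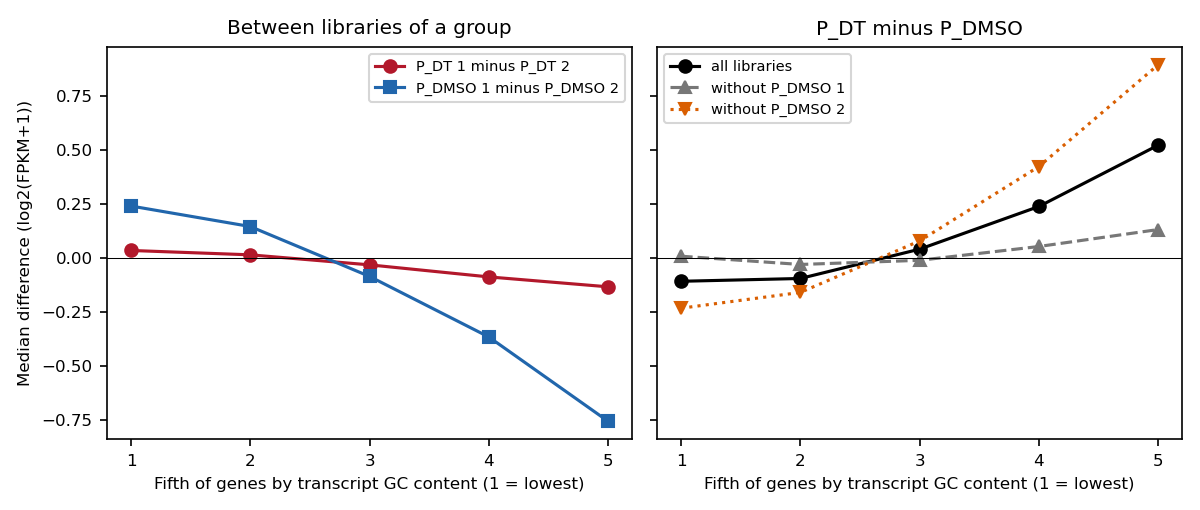
Median log2(FPKM+1) difference in equal groups of protein-coding genes that averaged at least 5 FPKM, ordered by transcript GC content. The left panel shows the libraries of each group against each other and the right panel P_DT minus P_DMSO with all libraries and without each P_DMSO library. The P_DMSO line falls to -0.76 in the highest group, where the P_DT line is at -0.13.

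Melanoma markers were present. Of 14 such markers 10 were tested, among them SOX10, MITF, S100B and ERBB3, while MLANA, PMEL, TYR and TYRP1 stayed under the filter in P_DT and in P_DMSO. The 9 fibroblast markers summed to 17.4 and 19.1 FPKM in P_DT and 4.30 and 4.11 FPKM in P_DMSO, with LUM and COL1A1 higher and with COL3A1, COL1A2, DCN and THY1 under the filter. The 8 leukocyte markers summed to 31.4 and 33.8 FPKM in P_DT and 32.7 and 66.4 FPKM in P_DMSO, nearly all of it CD68, and PTPRC stayed under the filter. The 7 endothelial markers summed to 0.508 and 0.775 FPKM in P_DT and 2.50 and 2.1 FPKM in P_DMSO. Keratinocyte markers (27.9 and 40.9 FPKM in P_DT, 28.1 and 38.3 FPKM in P_DMSO) were nearly all KRT10, and erythroid markers were at 0 FPKM in both P_DT libraries, against 0.0525 and 0 FPKM in P_DMSO. The part of other cell types in the results was not tested, and in bulk RNA a change in the share of cells of a state cannot be told apart from a change in RNA per cell.

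Limma called 4075 genes (26.2% of those tested) at a Benjamini-Hochberg adjusted p below 0.05, of which 2343 (15%) were higher and 1732 (11.1%) lower in P_DT. Values written as a difference below are P_DT minus P_DMSO on the log2(FPKM+1) scale ± the standard error of the fit, and understate the change of genes near 1 FPKM. The median difference over all 15577 genes was 0.13. Lists of genes are read against it and against the shares of all genes called, 26.2% in all, 15% higher and 11.1% lower. At least 1 log2 unit separated the groups for 1496 of the genes called higher and 932 of those called lower. In each of the 4075 called genes both P_DT libraries lay on one side of both P_DMSO libraries, which was so for 62.8% of all genes tested. The 2 groups were at least 2-fold apart in all 4 pairs of libraries for 893 genes with P_DT higher (5.73%) and 606 with P_DT lower (3.89%), and 1458 of these 1499 genes (9.62%) were also called. Calls depended on single libraries: 1585 genes were called without P_DT 1, 1652 without P_DT 2, 3916 without P_DMSO 1 and 6424 without P_DMSO 2. Leaving out a P_DT or P_DMSO library leaves its group with a lone sample that is assumed to vary like the others. The calls that held in all 4 of these fits numbered 1264 (8.11%), 666 higher (4.28%) and 598 lower (3.84%), and are termed kept below. After quantile normalization the median over all genes was -0.01 and the calls split into 2147 higher and 2316 lower, and on a TPM scale the median was 0.24 and the calls were 3178 higher and 1308 lower. Genes 2-fold apart in all pairs were 790 higher and 802 lower after quantile normalization, and 1319 higher and 563 lower on a TPM scale. Just inside the threshold stood COMMD5 (0.84, adjusted p = 0.04995) and ALKBH1 (-0.65), and just outside it ASB16-AS1 (0.87, adjusted p = 0.05002) and NOLC1 (0.51).

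Abundant genes were called lower more often than scarce ones. Of 787 genes with a mean above 100 FPKM, 131 were higher and 184 lower, and of 2408 genes with a mean up to 2 FPKM, 356 were higher and 184 lower. Among 441 processed pseudogenes, whose reads can come from their parent genes, 24 were higher and 49 lower.

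Several phosphatases that ERK induces fell many-fold. DUSP6, the cytoplasmic ERK phosphatase (chromosome 12, 89347232 to 89353271 on hg38), was at 6.21 and 5.43 FPKM in the P_DT libraries against 56.5 and 63 FPKM in P_DMSO, a difference of -3.16. DUSP5, its nuclear counterpart, was at 4.19 and 3.62 FPKM in the P_DT libraries against 43 and 43.8 FPKM in P_DMSO (-3.18 ± 0.14, adjusted p = 7.5e-05). DUSP4, also nuclear, stood at 9.18 and 9.66 FPKM in the P_DT libraries against 42.9 and 58.7 FPKM in P_DMSO (-2.3 ± 0.21, adjusted p = 0.00068). All 3 were kept in every fit that left out a library. DUSP10, which acts on JNK and p38, went the other way with 20.5 and 21.7 FPKM in the P_DT libraries against 9.59 and 8.85 FPKM in P_DMSO (1.11 ± 0.18, adjusted p = 0.0061), a call that ended without P_DT 2 (adjusted p = 0.050). Of 12 DUSP genes 5 were lower and 2 higher (median -0.18), and DUSP3, DUSP7, DUSP8, DUSP9 and DUSP14 did not pass.

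The Sprouty and SPRED inhibitors, which block the pathway at and above RAF, gave 4 lower genes of 6 tested and none higher, against 11.1% of all genes lower and 15% higher. SPRY4 was at 0.472 and 1.4 FPKM in the P_DT libraries against 19.8 and 25.1 FPKM in P_DMSO (-3.63 ± 0.28, adjusted p = 0.00037). SPRY2 was at 10.9 and 10.9 FPKM in the P_DT libraries against 68.5 and 55.7 FPKM in P_DMSO (-2.4 ± 0.15, adjusted p = 0.00017). SPRED2 was at 7.84 and 7.12 FPKM in the P_DT libraries against 16.5 and 20.9 FPKM in P_DMSO (-1.21 ± 0.18, adjusted p = 0.0045). In these 3 the libraries of P_DT all lay well below those of P_DMSO, whereas SPRED1 at 25.6 and 23.7 against 22.6 and 15.5 FPKM and SPRED3 at 3.33 and 3.4 against 4.97 and 12.4 FPKM did not pass.

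Of 17 ETS transcription factors, many of them direct ERK substrates or targets, 5 were lower and 2 higher, with a median of 0.02. That is 41.2% called, against 26.2% of all genes. ETV4 was at 2.23 and 2.53 FPKM in the P_DT libraries against 49.1 and 65.3 FPKM in P_DMSO (-4.09 ± 0.24, adjusted p = 0.00015). ETV5 was at 1.95 and 2.29 FPKM in the P_DT libraries against 40.4 and 28.5 FPKM in P_DMSO (-3.49 ± 0.21, adjusted p = 0.00015). ELK3, an ERK-responsive ETS factor of the ternary complex class, was at 16.5 and 18.3 FPKM in the P_DT libraries against 34.4 and 32.5 FPKM in P_DMSO (-0.91 ± 0.13, adjusted p = 0.0040). The increase was in ELF1, at 47.1 and 46.4 FPKM in the P_DT libraries against 13.9 and 14.2 FPKM in P_DMSO (1.67 ± 0.13, adjusted p = 0.00034), and in ERF, a repressor that ERK exports from the nucleus, at 51.1 and 58.9 FPKM in the P_DT libraries against 15.2 and 29.6 FPKM in P_DMSO. The ERF call ended without P_DT 1 (adjusted p = 0.075) and without P_DT 2 (adjusted p = 0.10). ETS1, at 61.6 and 61.5 against 61 and 60.5 FPKM, did not pass.

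Immediate early genes, which growth factors induce within minutes, did not move as a block: of 21 tested, 8 were lower and 5 higher, and 13 were lower without P_DMSO 1. EGR1, the zinc finger factor that serum induces through SRF, was near detection in P_DT, at 0.10 and 0.0812 FPKM in the P_DT libraries against 3.23 and 8.3 FPKM in P_DMSO (-2.52 ± 0.38, adjusted p = 0.0044). Its promoter is shown because it holds 2 matches to the CArG box, the site that SRF reads, at positions -105 and -83 from the start. The window runs from 250 bases before to 50 after the start of the gene on the plus strand (chr5:138465229-138465528, RefSeq, GRCh38.p14), with the matches in capitals.
EGR1: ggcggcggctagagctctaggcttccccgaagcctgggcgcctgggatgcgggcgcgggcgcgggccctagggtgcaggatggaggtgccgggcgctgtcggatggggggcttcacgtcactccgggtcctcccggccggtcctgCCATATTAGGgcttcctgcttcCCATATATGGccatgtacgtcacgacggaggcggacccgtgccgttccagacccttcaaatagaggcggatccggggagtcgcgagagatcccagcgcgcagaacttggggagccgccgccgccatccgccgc
A CArG box, searched on both strands, is in 1.29% of 35116 RefSeq windows of this length and in 1.58% of the 10848 tested genes that have one. SRF itself has 2 matches, and with 12.1 and 11.2 against 7.3 and 14.6 FPKM it did not pass. PHLDA1, a proapoptotic ERK target, was at 49.9 and 52.1 FPKM in the P_DT libraries against 253 and 274 FPKM in P_DMSO (-2.34 ± 0.12, adjusted p = 0.00010), and the early response gene IER3 at 29 and 33.4 FPKM in the P_DT libraries against 142 and 173 FPKM in P_DMSO (-2.3 ± 0.15, adjusted p = 0.00018). MYC was at 1.93 and 3.19 FPKM in the P_DT libraries against 11.5 and 18 FPKM in P_DMSO (-2.14 ± 0.28, adjusted p = 0.0026). These 3 lay lower in P_DT with no overlap. In the other direction JUN, the AP-1 subunit, was at 292 and 319 FPKM in the P_DT libraries against 8.12 and 16.6 FPKM in P_DMSO (4.59 ± 0.29, adjusted p = 0.00018). FOSL2, another AP-1 subunit, was at 36.6 and 34.9 FPKM in the P_DT libraries against 4.91 and 7.62 FPKM in P_DMSO (2.36 ± 0.21, adjusted p = 0.00061). FOSL1, the FOS-related factor that the study centres on, was at 32.9 and 29.6 FPKM in the P_DT libraries against 77.9 and 214 FPKM in P_DMSO (-2.01 ± 0.41, adjusted p = 0.013), with the P_DMSO libraries nearly 3-fold apart. That call ended without P_DT 1 (adjusted p = 0.073) and without P_DT 2 (adjusted p = 0.086). JUND at 97 and 118 against 113 and 119 FPKM and CCN1 at 47.2 and 53.4 against 49.5 and 53.3 FPKM did not pass.

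Of 24 genes of RAS, RAF, MEK, ERK and their adaptors and effectors, 2 were higher and 4 lower. That is 25% called, near the 26.2% of all genes. The median was 0.05 and none of the 6 calls was kept. BRAF, the target of dabrafenib, was at 9.02 and 6.84 FPKM in the P_DT libraries against 9.15 and 9.88 FPKM in P_DMSO. MAP2K1, which encodes the trametinib target MEK1, was at 40.2 and 38.6 FPKM in the P_DT libraries against 40.3 and 42.7 FPKM in P_DMSO. Neither passed. The lower genes included RPS6KA3, an ERK-activated kinase, at 32.5 and 23.9 FPKM in the P_DT libraries against 55 and 50.6 FPKM in P_DMSO (-0.90 ± 0.17, adjusted p = 0.0096), a call that ended without P_DT 2 (adjusted p = 0.054), and the higher ones were SOS1 and RRAS.

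Receptor tyrosine kinases moved both ways. Of 16 tested, 4 were higher and 5 lower, or 56.25% called, against 26.2% of all genes. ERBB3, the neuregulin receptor, was at 140.2 and 128 FPKM in the P_DT libraries against 35.7 and 33 FPKM in P_DMSO (1.93 ± 0.15, adjusted p = 0.00037), and its partner ERBB2 at 39.5 and 34.7 FPKM in the P_DT libraries against 15.4 and 16 FPKM in P_DMSO (1.18 ± 0.18, adjusted p = 0.0049). EPHA2, an ephrin receptor, was at 43.9 and 42.6 FPKM in the P_DT libraries against 186 and 290.0 FPKM in P_DMSO (-2.4 ± 0.20, adjusted p = 0.00054). MET, the receptor of hepatocyte growth factor, was at 21.5 and 22 FPKM in the P_DT libraries against 65.1 and 44.4 FPKM in P_DMSO (-1.27 ± 0.20, adjusted p = 0.0051). EGFR and AXL fell as well, by 2.08 and 1.82 on the log2 scale, and IGF1R at 14.5 and 11.9 against 11.6 and 23.4 FPKM and FGFR1 at 7.99 and 9.15 against 9.04 and 9.85 FPKM did not pass.

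Among 18 growth factor ligands 6 were lower and 4 higher, 4 and 3 of them kept. The share of ligands called was 55.6%, against 26.2% of all genes. AREG, an EGFR ligand, was at 1.17 and 0.441 FPKM in the P_DT libraries against 12.7 and 10.7 FPKM in P_DMSO (-2.84 ± 0.25, adjusted p = 0.00064). TGFA, another EGFR ligand, was at 7.75 and 5.43 FPKM in the P_DT libraries against 37.2 and 37.1 FPKM in P_DMSO (-2.35 ± 0.19, adjusted p = 0.00048). VEGFC, the lymphatic endothelial factor, was at 4.81 and 4.15 FPKM in the P_DT libraries against 15.1 and 12.2 FPKM in P_DMSO (-1.42 ± 0.16, adjusted p = 0.0015). The ligand of ERBB3 moved the same way as its receptor, and NRG1 was at 8.96 and 7.68 FPKM in the P_DT libraries against 2.49 and 2.05 FPKM in P_DMSO (1.51 ± 0.19, adjusted p = 0.0021). FGF1 was scarce in P_DMSO, with 9.63 and 8.42 FPKM in the P_DT libraries against 0.157 and 0.287 FPKM in P_DMSO (3.04 ± 0.31, adjusted p = 0.0011). HBEGF at 7.5 and 7.65 against 7.54 and 6.7 FPKM and VEGFA at 40.5 and 44.9 against 50.2 and 64.4 FPKM did not pass.

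Regulators of the G1 phase moved in both directions, 6 lower and 3 higher of 19, with 3 and 1 kept. That is 47.4% called, against 26.2% of all genes. CCND1, cyclin D1, was at 32.1 and 27.2 FPKM in the P_DT libraries against 176 and 183 FPKM in P_DMSO (-2.56 ± 0.13, adjusted p = 0.00010). E2F7, an atypical E2F, was at 6.3 and 5.22 FPKM in the P_DT libraries against 18.4 and 18.5 FPKM in P_DMSO (-1.53 ± 0.19, adjusted p = 0.0020). CDK2, the kinase of the cyclins E and A, was at 19.9 and 23 FPKM in the P_DT libraries against 42.8 and 43.3 FPKM in P_DMSO (-0.98 ± 0.13, adjusted p = 0.0029). The increase was in an inhibitor of CDK4 and CDK6: CDKN2C, which encodes p18, was at 99.8 and 109 FPKM in the P_DT libraries against 10.6 and 11.9 FPKM in P_DMSO (3.11 ± 0.19, adjusted p = 0.00015). CDKN1B, which encodes p27, was at 47.6 and 49 FPKM in the P_DT libraries against 21.5 and 29.8 FPKM in P_DMSO (0.91 ± 0.18, adjusted p = 0.014), and lost its call without P_DT 1 (adjusted p = 0.076) and without P_DT 2 (adjusted p = 0.085). CDK4 at 144 and 168 against 132 and 154 FPKM did not pass.

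In the BCL2 family, which sets the threshold for apoptosis, 1 gene was higher and 3 were lower of 15 tested, or 26.7% called, near the 26.2% of all genes. BMF, a proapoptotic BH3-only gene (chromosome 15, 40087890 to 40108892), was at 62 and 58 FPKM in the P_DT libraries against 1.8 and 2.31 FPKM in P_DMSO (4.33 ± 0.24, adjusted p = 0.00013). PMAIP1, which encodes NOXA, was at 11.9 and 12.1 FPKM in the P_DT libraries against 138 and 105 FPKM in P_DMSO (-3.22 ± 0.18, adjusted p = 0.00014). The antiapoptotic MCL1 was at 111 and 108 FPKM in the P_DT libraries against 196 and 185 FPKM in P_DMSO (-0.79 ± 0.11, adjusted p = 0.0038). BCL2 was at 0.716 and 0.638 FPKM in the P_DT libraries against 2.51 and 3.02 FPKM in P_DMSO (-1.16 ± 0.21, adjusted p = 0.0082). All 4 calls were kept. BCL2L11, which encodes BIM, was at 5.96 and 6.01 FPKM in the P_DT libraries against 4.82 and 3.35 FPKM in P_DMSO. BCL2L1, which encodes BCL-XL, was at 34.5 and 36.9 FPKM in the P_DT libraries against 47.5 and 105 FPKM in P_DMSO, and neither passed.

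Transcripts of enzymes that charge tRNAs with amino acids were lower in P_DT than in P_DMSO as a group. Levels in a further group of P cells, nearer to P_DT for several of these enzymes, are given at the end. Of 18 aminoacyl-tRNA synthetases 13 were lower and none higher, against 11.1% of all genes lower, with a median of -0.81, and 7 calls were kept, which are also those left without P_DT 1. SARS1 was at 84.3 and 96.4 FPKM in the P_DT libraries against 303 and 328 FPKM in P_DMSO (-1.79 ± 0.13, adjusted p = 0.00027). AARS1 was at 86.2 and 93.8 FPKM in the P_DT libraries against 265 and 302 FPKM in P_DMSO (-1.64 ± 0.14, adjusted p = 0.00057). IARS1 was at 75.7 and 71.8 FPKM in the P_DT libraries against 214 and 183 FPKM in P_DMSO (-1.41 ± 0.13, adjusted p = 0.00072). In all 3 both P_DT libraries lay under 100 FPKM and both P_DMSO libraries above 180 FPKM. WARS1 (-1.32 ± 0.15, adjusted p = 0.0014), YARS1 (-1.2 ± 0.13, adjusted p = 0.0013), GARS1 (-1.61 ± 0.25, adjusted p = 0.0051) and LARS1 (-1.03 ± 0.16, adjusted p = 0.0047) complete the kept ones. Members that did not pass included RARS1, QARS1, VARS1 and HARS1, which was at 58.4 and 67.7 against 58.6 and 67.2 FPKM.

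Synthetases that were called lower often held, near their start, the element that ATF4 and its C/EBP partners bind, known from ASNS as the amino acid response element. The motif TGATGNAA, searched on both strands, lies in the window from 250 bases before to 50 after the start in 7 of the 11 lower synthetases with a RefSeq window (TARS1, MARS1, CARS1, NARS1, IARS1, GARS1 and AARS1) and in 0 of the 3 that were not called. It is in 3.62% of 35116 windows and in 2.86% of the 10848 tested genes with one. A match is a description of the letters and no evidence of binding. The promoters of ASNS (chr7:97872359-97872658, minus strand, match at -68), MARS1 (chr12:57487818-57488117, plus strand, match at -4) and IARS1 (chr9:92293648-92293947, minus strand, match at -13) are given 5′ to 3′ to show where the match sits, in capitals, and on which strand. In MARS1 and IARS1 it reads as the reverse complement.
ASNS: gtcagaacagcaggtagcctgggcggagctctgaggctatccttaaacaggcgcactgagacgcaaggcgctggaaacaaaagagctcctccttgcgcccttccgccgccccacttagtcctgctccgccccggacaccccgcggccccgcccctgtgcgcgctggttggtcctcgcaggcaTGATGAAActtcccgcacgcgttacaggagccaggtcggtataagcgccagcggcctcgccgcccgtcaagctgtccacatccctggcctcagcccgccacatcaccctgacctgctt
MARS1: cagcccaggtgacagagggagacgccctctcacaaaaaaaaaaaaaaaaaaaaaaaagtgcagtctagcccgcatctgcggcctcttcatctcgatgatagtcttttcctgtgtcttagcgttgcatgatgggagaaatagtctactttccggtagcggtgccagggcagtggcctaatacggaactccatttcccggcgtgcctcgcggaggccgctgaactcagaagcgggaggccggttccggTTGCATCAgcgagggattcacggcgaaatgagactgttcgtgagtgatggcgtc
IARS1: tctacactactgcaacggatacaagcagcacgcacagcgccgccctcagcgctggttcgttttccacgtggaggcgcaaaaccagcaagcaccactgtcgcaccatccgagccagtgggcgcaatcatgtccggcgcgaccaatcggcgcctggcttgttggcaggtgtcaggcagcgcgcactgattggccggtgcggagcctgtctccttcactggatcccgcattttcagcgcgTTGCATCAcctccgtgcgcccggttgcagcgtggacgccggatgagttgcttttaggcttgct
The sequences are RefSeq's, of GRCh38.p14.

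Enzymes of serine synthesis and one-carbon metabolism moved with the synthetases, 7 lower and 2 higher of 17, with 6 and 1 kept. These counts include ASNS, asparagine synthetase (chromosome 7, 97852118 to 97872542), which is on the list but in neither pathway. ASNS was at 40.7 and 35.4 FPKM in the P_DT libraries against 279 and 172 FPKM in P_DMSO (-2.5 ± 0.22, adjusted p = 0.00065). MTHFD2, the mitochondrial folate enzyme, was at 63.6 and 60.2 FPKM in the P_DT libraries against 289 and 222 FPKM in P_DMSO (-2.02 ± 0.16, adjusted p = 0.00035). PHGDH, the first enzyme of serine synthesis, was at 80.3 and 89.8 FPKM in the P_DT libraries against 214 and 286 FPKM in P_DMSO (-1.53 ± 0.17, adjusted p = 0.0016). ALDH1L2 (-1.73 ± 0.19, adjusted p = 0.0013) and MTHFD1L (-1.69 ± 0.15, adjusted p = 0.00067), both mitochondrial, fell too. SHMT1, the cytosolic serine hydroxymethyltransferase, was higher, at 36.7 and 34.4 FPKM in the P_DT libraries against 12.2 and 15.2 FPKM in P_DMSO (1.32 ± 0.19, adjusted p = 0.0041), and its mitochondrial counterpart SHMT2 lower, at 74.5 and 86.4 FPKM in the P_DT libraries against 118 and 175 FPKM in P_DMSO. The SHMT2 call ended without P_DT 1 (adjusted p = 0.14) and without P_DT 2 (adjusted p = 0.084). PSAT1 at 119 and 129 against 158 and 136 FPKM did not pass. The ATF4 motif is in 2 of the 4 lower members with a window, MTHFD1L and ASNS, and in 0 of the 5 not called.

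Amino acid transporters gave 9 lower and 1 higher of 19 (median -0.54), with 6 lower calls kept. SLC38A1 was at 30.7 and 22 FPKM in the P_DT libraries against 88.8 and 80.4 FPKM in P_DMSO (-1.66 ± 0.18, adjusted p = 0.0013). SLC38A2 was at 109.5 and 95.3 FPKM in the P_DT libraries against 289.7 and 226 FPKM in P_DMSO (-1.32 ± 0.18, adjusted p = 0.0035), both sodium-coupled transporters of neutral amino acids. SLC7A1, a carrier of arginine and lysine, was at 21.2 and 18.8 FPKM in the P_DT libraries against 43 and 50.4 FPKM in P_DMSO (-1.18 ± 0.14, adjusted p = 0.0019). SLC6A15 was at 17.1 and 16.7 FPKM in the P_DT libraries against 60.9 and 47.1 FPKM in P_DMSO (-1.61 ± 0.19, adjusted p = 0.0018). SLC7A11 and SLC43A1 were the other kept members. SLC7A5, the large neutral amino acid carrier, was at 252 and 261 FPKM in the P_DT libraries against 306 and 455 FPKM in P_DMSO and did not pass. The motif TGATGNAA is in 4 of the 7 lower transporters with a window and in 2 of the 8 not called.

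**Figure D2:**
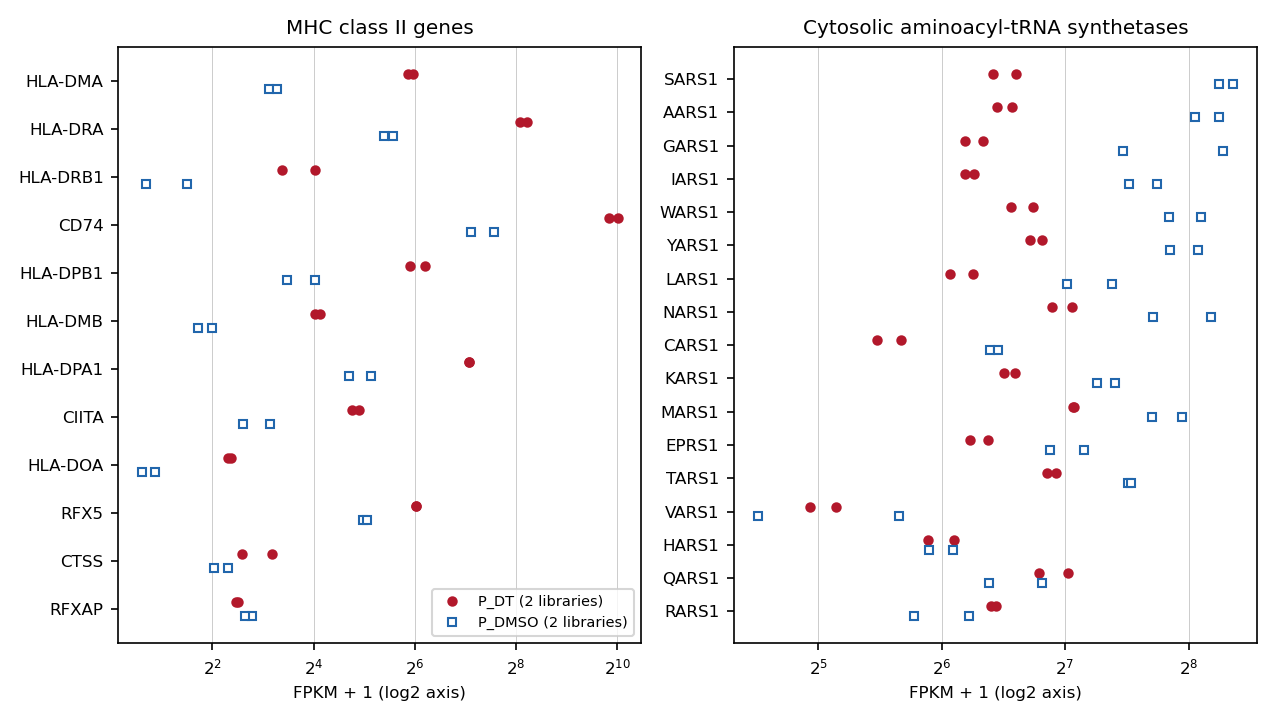
FPKM + 1 (log2 axis) of each library for the 12 tested MHC class II genes and for aminoacyl-tRNA synthetases, P_DT as filled circles and P_DMSO as open squares. The class II genes lie to the right in P_DT down to RFX5, and the synthetases to the left down to TARS1.

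Genes that make ribosomes and nucleotides leaned lower by less. The shares called lower were 29.2% for ribosome biogenesis, 35% for nucleotide synthesis and 28.6% for mitochondrial biogenesis, against 11.1% of all genes. Of 24 ribosome biogenesis genes 7 were lower and none higher (median -0.40), of which only POLR1E, a subunit of RNA polymerase I, was kept, at 17.4 and 16.8 FPKM in the P_DT libraries against 30.7 and 34.5 FPKM in P_DMSO (-0.89 ± 0.15, adjusted p = 0.0061). NPM1, nucleophosmin, was at 581 and 600.0 FPKM in the P_DT libraries against 967 and 787 FPKM in P_DMSO (-0.56 ± 0.15, adjusted p = 0.031). FBL, the rRNA methyltransferase, was at 97 and 106 FPKM in the P_DT libraries against 142 and 224 FPKM in P_DMSO (-0.81 ± 0.21, adjusted p = 0.031). The calls of NPM1 and FBL ended in both fits without a P_DT library, at adjusted p of 0.15 and 0.12 for NPM1 and 0.15 and 0.11 for FBL. Of 20 nucleotide synthesis genes 7 were lower and 1 higher, 2 of them kept, both purine enzymes. GART was at 36.9 and 38.8 FPKM in the P_DT libraries against 82.9 and 67.6 FPKM in P_DMSO (-0.97 ± 0.14, adjusted p = 0.0043). ADSL was at 39.4 and 39.5 FPKM in the P_DT libraries against 89.7 and 70.4 FPKM in P_DMSO (-0.99 ± 0.15, adjusted p = 0.0043). TK1, thymidine kinase, was the higher one at 24.3 and 29 against 14.4 and 17.1 FPKM, and its call ended without P_DT 1 (adjusted p = 0.060) and without P_DT 2 (adjusted p = 0.12). Mitochondrial biogenesis gave 4 lower of 14 and none higher, and TFB1M, a mitochondrial rRNA methyltransferase, was the kept one with 4.9 and 2.77 FPKM in the P_DT libraries against 21.4 and 16.4 FPKM in P_DMSO (-2.07 ± 0.26, adjusted p = 0.0023).

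A ranking by change in mean FPKM favours abundant genes. Of the 10 genes with the largest drop in mean FPKM, 6 encode ribosomal proteins (RPL26, RPS21, RPS18, RPL13, RPS19 and RPL29) and another is the translation elongation factor EEF1A1. RPL26 was at 1863 and 2128 FPKM in the P_DT libraries against 5449.7 and 4270.3 FPKM in P_DMSO (-1.28 ± 0.17, adjusted p = 0.0028). RPL29 was at 1361 and 1613 FPKM in the P_DT libraries against 3155 and 3023 FPKM in P_DMSO (-1.06 ± 0.15, adjusted p = 0.0033). EEF1A1 was at 4412 and 4639 FPKM in the P_DT libraries against 6466 and 6588 FPKM in P_DMSO (-0.53 ± 0.14, adjusted p = 0.030), and lost its call without P_DT 1 (adjusted p = 0.15) and without P_DT 2 (adjusted p = 0.11). RPS19, at 1984 and 2399 against 2619 and 5125 FPKM, did not pass. GAS5, a noncoding host of snoRNAs whose transcript carries the same 5′ terminal pyrimidine tract as ribosomal protein mRNAs, was at 559 and 711 FPKM in the P_DT libraries against 3560.5 and 3003 FPKM in P_DMSO (-2.37 ± 0.18, adjusted p = 0.00030). FTH1, the ferritin heavy chain, was at 1701 and 1881 FPKM in the P_DT libraries against 4709 and 5337 FPKM in P_DMSO (-1.49 ± 0.15, adjusted p = 0.0011). These genes have many processed pseudogenes, and how shared reads were divided is not given in the sources used here. The 10 largest gains included S100A4 at 1570.3 and 1966 FPKM in the P_DT libraries against 682 and 871 FPKM in P_DMSO (1.19 ± 0.21, adjusted p = 0.0088). S100A10 was at 1159.7 and 1389.5 FPKM in the P_DT libraries against 290.1 and 531 FPKM in P_DMSO (1.69 ± 0.28, adjusted p = 0.0063). ANXA2, the annexin that S100A10 binds, was at 1284 and 1449.7 FPKM in the P_DT libraries against 393 and 408 FPKM in P_DMSO (1.77 ± 0.13, adjusted p = 0.00029). The calls of S100A4 (adjusted p = 0.069) and S100A10 (adjusted p = 0.055) ended without P_DT 2. The other 7 gains were 6 mitochondrially encoded transcripts and RN7SL2, of which MT-ND6 at 2386 and 2621 against 483 and 1190.5 FPKM (1.72 ± 0.38, adjusted p = 0.018) and MT-RNR2 at 2252 and 2315 against 1134 and 1662 FPKM (0.73 ± 0.19, adjusted p = 0.033) passed. The MT-ND6 call ended without P_DT 1 (adjusted p = 0.088) and without P_DT 2 (adjusted p = 0.10). The MT-RNR2 call ended without P_DT 1 (adjusted p = 0.13) and without P_DT 2 (adjusted p = 0.14). The most abundant transcript, MT-CO1, was at 9143 and 10001 FPKM in the P_DT libraries against 6476 and 8848 FPKM in P_DMSO and did not pass.

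Of 24 genes of glucose uptake and glycolysis 4 were lower and 2 higher, or 25% called, near the 26.2% of all genes. The counts were 9 lower without P_DMSO 1 and 7 higher without P_DMSO 2. SLC2A3, the neuronal-type glucose transporter, was at 5.19 and 4.55 FPKM in the P_DT libraries against 35.2 and 33 FPKM in P_DMSO (-2.58 ± 0.14, adjusted p = 0.00010). HK2, a hexokinase, was at 7.1 and 6.11 FPKM in the P_DT libraries against 13.3 and 14.3 FPKM in P_DMSO (-0.97 ± 0.15, adjusted p = 0.0050). These were the kept calls. SLC2A1 at 34.7 and 37.6 against 38.2 and 61.7 FPKM, GAPDH at 2373 and 2769 against 1666 and 2232 FPKM and LDHB at 577 and 617 against 756 and 923 FPKM did not pass.

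Secreted inflammatory factors fell over a wide range. Of 15 interleukins, their receptors and related genes, mostly of the interleukin-1 and interleukin-6 families, 9 were lower and 1 higher (median -1.11), with 5 lower calls kept and 6 called lower without either P_DT library. IL24 (chromosome 1, 206897443 to 206904139), a cytokine of the interleukin-10 family, was at 7.08 and 5.96 FPKM in the P_DT libraries against 754 and 693 FPKM in P_DMSO (-6.59 ± 0.14, adjusted p = 6.1e-06). Its level in a further group of P cells, nearer to P_DT, is given at the end. IL1B was at 0.352 and 0.16 FPKM in the P_DT libraries against 14.2 and 15 FPKM in P_DMSO (-3.64 ± 0.21, adjusted p = 0.00013). IL1A was at 3.33 and 5.03 FPKM in the P_DT libraries against 43.6 and 29.4 FPKM in P_DMSO (-2.85 ± 0.29, adjusted p = 0.0011). IL11, a cytokine of the interleukin-6 family, was at 3.29 and 2.31 FPKM in the P_DT libraries against 24.8 and 58.6 FPKM in P_DMSO (-3.38 ± 0.36, adjusted p = 0.0013). CSF2, which encodes GM-CSF, was listed at 0 FPKM in both P_DT libraries against 2.68 and 4.5 FPKM in P_DMSO. The shared receptor subunit IL6ST was the higher member, at 32.8 and 31.2 against 23.9 and 18.1 FPKM, and its call ended without P_DT 1 (adjusted p = 0.17), without P_DT 2 (adjusted p = 0.14) and without P_DMSO 2 (adjusted p = 0.060). SOCS3, the feedback inhibitor of these receptors, was at 7.84 and 8.7 FPKM in the P_DT libraries against 3.32 and 10.6 FPKM in P_DMSO and did not pass.

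Of 16 chemokine genes 6 were tested, and 4 were lower and 1 higher. CXCL8, the neutrophil attractant interleukin-8, was at 2.37 and 5.11 FPKM in the P_DT libraries against 116 and 78.1 FPKM in P_DMSO (-4.4 ± 0.30, adjusted p = 0.00023). CXCL1 was at 13.8 and 16.1 FPKM in the P_DT libraries against 30.2 and 28.6 FPKM in P_DMSO (-0.93 ± 0.13, adjusted p = 0.0035). CXCL2 was at 1.45 and 0.601 FPKM in the P_DT libraries against 4.47 and 5.0 FPKM in P_DMSO (-1.53 ± 0.27, adjusted p = 0.0080). CCL2, which attracts monocytes, rose instead, at 160.4 and 192 FPKM in the P_DT libraries against 16.7 and 27.4 FPKM in P_DMSO (2.97 ± 0.29, adjusted p = 0.00095). The 3 lower CXC genes and CCL2 were kept.

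MHC class II genes rose as a set and kept their calls throughout. Class II molecules show peptides to CD4+ T cells, CIITA is the coactivator that turns their genes on, CD74 is the invariant chain that escorts them, and HLA-DM loads the peptide. Of 14 members 12 were tested, and 10 were higher and none lower, against 15% of all genes higher, with a median of 2.18. All 10 were kept. CIITA (chromosome 16, 10866222 to 10943021) was at 26.3 and 28.9 FPKM in the P_DT libraries against 5.05 and 7.78 FPKM in P_DMSO (1.97 ± 0.21, adjusted p = 0.0013). CD74 was at 918 and 1029 FPKM in the P_DT libraries against 138 and 189 FPKM in P_DMSO (2.58 ± 0.17, adjusted p = 0.00020). HLA-DRA, the alpha chain of HLA-DR, was at 269.6 and 298 FPKM in the P_DT libraries against 41.2 and 46.7 FPKM in P_DMSO (2.67 ± 0.16, adjusted p = 0.00015). In P_DT these lay several-fold above P_DMSO in every pair of libraries. HLA-DMA was at 57.1 and 61.3 FPKM in the P_DT libraries against 7.64 and 8.7 FPKM in P_DMSO (2.72 ± 0.22, adjusted p = 0.00046). HLA-DMB was at 15.3 and 16.6 FPKM in the P_DT libraries against 2.3 and 3.0 FPKM in P_DMSO (2.22 ± 0.29, adjusted p = 0.0027). HLA-DPA1 was at 133 and 134 FPKM in the P_DT libraries against 25.2 and 34.3 FPKM in P_DMSO (2.14 ± 0.21, adjusted p = 0.00096). HLA-DRB1, a polymorphic gene whose reads can fall on its paralogs, was at 15.4 and 9.44 FPKM in the P_DT libraries against 0.615 and 1.83 FPKM in P_DMSO (2.61 ± 0.34, adjusted p = 0.0027). RFX5, a subunit of the factor that binds the class II X box, was at 64.2 and 63.8 FPKM in the P_DT libraries against 30.5 and 32.2 FPKM in P_DMSO (1.01 ± 0.13, adjusted p = 0.0028). Its partner RFXAP, at 4.55 and 4.69 against 5.92 and 5.28 FPKM, and CTSS, the protease that trims CD74, at 8.04 and 5.04 against 3.97 and 3.08 FPKM, did not pass. HLA-DQA1 and HLA-DQB1 stayed under the filter.

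Class II promoters are known for an X box, read by RFX, and a Y box, which holds an inverted CCAAT read by NF-Y. The letters AACNGATG were used for the core of the X box and ATTGG for the Y box, on both strands. AACNGATG is in the windows of 2 of the 8 higher members of the class II list with one, against 1.91% of the 10848 tested genes. ATTGG, in either orientation, is in 7 of the 8, against 43.6%. The 7 include the regulator RFX5, so they are not a count of Y boxes. The promoters with both are shown with the matches in capitals, on the minus strand of HLA-DMB (chr6:32940979-32941278, matches at -85 and -22) and of HLA-DRB1 (chr6:32589799-32590098, matches at -195, -76 and -46). ATTGG appears as CCAAT where it lies on the other strand, and the one at -195 in HLA-DRB1 overlaps a CArG box match. The matches at -22 in HLA-DMB and at -195 in HLA-DRB1 read CCAAT, so they lack the inverted orientation of a Y box.
HLA-DMB: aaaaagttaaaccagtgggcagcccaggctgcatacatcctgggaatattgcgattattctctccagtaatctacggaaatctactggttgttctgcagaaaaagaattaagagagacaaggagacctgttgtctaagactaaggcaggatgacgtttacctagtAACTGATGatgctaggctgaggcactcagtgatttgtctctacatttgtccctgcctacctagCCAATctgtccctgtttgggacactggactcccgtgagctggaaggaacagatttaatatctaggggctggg
HLA-DRB1: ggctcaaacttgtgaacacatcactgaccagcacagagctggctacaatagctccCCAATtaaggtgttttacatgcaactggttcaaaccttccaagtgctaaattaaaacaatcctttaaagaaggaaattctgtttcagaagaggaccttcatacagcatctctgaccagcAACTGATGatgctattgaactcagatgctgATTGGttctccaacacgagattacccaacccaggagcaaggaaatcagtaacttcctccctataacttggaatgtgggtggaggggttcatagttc
The other windows hold no AACNGATG, which says only that these letters are not in these 300 bases.

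Lineage genes of melanocytes and their neural crest precursors rose in part. Of 19 pigment genes 11 were tested, with 6 higher and 2 lower (median 1.0), and 4 of the higher calls kept. DCT, the melanin enzyme dopachrome tautomerase, was at 17 and 17.4 FPKM in the P_DT libraries against 0 and 0.129 FPKM in P_DMSO (4.1 ± 0.20, adjusted p = 0.00010). MITF was at 23.8 and 29.3 FPKM in the P_DT libraries against 4.82 and 7.51 FPKM in P_DMSO, a difference of 1.96. GPNMB, a melanosome glycoprotein, was at 104 and 105 FPKM in the P_DT libraries against 51.1 and 43.6 FPKM in P_DMSO (1.13 ± 0.13, adjusted p = 0.0017). EDNRB, the endothelin receptor of melanoblasts, was at 15.2 and 13.6 FPKM in the P_DT libraries against 5.76 and 5.86 FPKM in P_DMSO (1.18 ± 0.18, adjusted p = 0.0046). SOX10 stood at 312 and 333 FPKM in the P_DT libraries against 143 and 180.3 FPKM in P_DMSO, and lost its call without P_DT 1 (adjusted p = 0.054) and without P_DT 2 (adjusted p = 0.066). PAX3 at 4.67 and 4.74 against 6.28 and 7.64 FPKM did not pass. CSPG4, the melanoma proteoglycan, went the other way at 14.2 and 14.8 FPKM in the P_DT libraries against 43.1 and 99.5 FPKM in P_DMSO (-2.1 ± 0.35, adjusted p = 0.0062), and lost its call without P_DT 1 (adjusted p = 0.051).

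Adhesion molecules of neural cells moved widely. Of 17 cadherins, protocadherins and related molecules tested, 10 were higher and 4 lower, with a median of 1.43, and 8 and 2 were kept. PCDH7 was at 14.9 and 12.2 FPKM in the P_DT libraries against 0.0979 and 0.139 FPKM in P_DMSO (3.7 ± 0.21, adjusted p = 0.00014). PCDH10 was at 34.2 and 31.7 FPKM in the P_DT libraries against 1.83 and 3.63 FPKM in P_DMSO (3.23 ± 0.31, adjusted p = 0.00082). CADM1, a homophilic adhesion molecule, was at 77.1 and 72.8 FPKM in the P_DT libraries against 11.4 and 11.7 FPKM in P_DMSO (2.6 ± 0.13, adjusted p = 0.00010). CDH2, N-cadherin, was at 114 and 103 FPKM in the P_DT libraries against 40.3 and 32.6 FPKM in P_DMSO (1.56 ± 0.15, adjusted p = 0.00095). CDH19, a cadherin of Schwann cell precursors, was at 62.6 and 61.2 FPKM in the P_DT libraries against 20.5 and 12.7 FPKM in P_DMSO (1.87 ± 0.24, adjusted p = 0.0026). Within the family of immunoglobulin adhesion molecules that are anchored to the membrane by lipid, LSAMP (4.65 ± 0.26, adjusted p = 0.00013) rose while NTM fell, at 3.57 and 3.92 FPKM in the P_DT libraries against 37.9 and 38 FPKM in P_DMSO (-3.04 ± 0.19, adjusted p = 0.00016). CDH1, E-cadherin, stayed under the filter.

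Of 20 semaphorins, plexins and neuropilins 10 were higher and 3 lower, but 4 and 1 were kept, and 4 higher calls were left without P_DT 1. SEMA3C, a secreted guidance cue, was at 413 and 402 FPKM in the P_DT libraries against 41.9 and 51.5 FPKM in P_DMSO (3.11 ± 0.14, adjusted p = 8.6e-05). SEMA3E was at 7.64 and 7.34 FPKM in the P_DT libraries against 1.07 and 0.65 FPKM in P_DMSO (2.2 ± 0.23, adjusted p = 0.0012). PLXNB3, a plexin receptor, was at 66.7 and 69.4 FPKM in the P_DT libraries against 11.2 and 9.78 FPKM in P_DMSO (2.59 ± 0.18, adjusted p = 0.00023). NRP1, a coreceptor of class 3 semaphorins, was at 84.7 and 68.8 FPKM in the P_DT libraries against 33 and 36.8 FPKM in P_DMSO (1.11 ± 0.16, adjusted p = 0.0041). SEMA3F was lower, at 1.42 and 0.917 FPKM in the P_DT libraries against 4.67 and 7.35 FPKM in P_DMSO (-1.68 ± 0.26, adjusted p = 0.0052). SEMA3A, at 34.7 and 20.4 FPKM in the P_DT libraries against 119.8 and 304 FPKM in P_DMSO (-2.79 ± 0.55, adjusted p = 0.012), lost its call without P_DT 2 (adjusted p = 0.087).

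Collagen genes rose more often than they fell. Of 17 collagen chains 10 were higher and 4 lower (median 1.08), 4 and 3 of them kept. The fibril-forming chains of type V rose together, COL5A2 at 203 and 200.2 FPKM in the P_DT libraries against 11.3 and 13.6 FPKM in P_DMSO (3.92 ± 0.15, adjusted p = 5.8e-05). COL5A1 was at 22.7 and 24 FPKM in the P_DT libraries against 2.06 and 2.42 FPKM in P_DMSO (2.91 ± 0.15, adjusted p = 0.00010). COL8A1 was at 27 and 26.7 FPKM in the P_DT libraries against 3.37 and 0.716 FPKM in P_DMSO (3.35 ± 0.48, adjusted p = 0.0040). COL16A1 was at 53.2 and 60.2 FPKM in the P_DT libraries against 0.979 and 6.4 FPKM in P_DMSO (3.91 ± 0.54, adjusted p = 0.0033). The P_DMSO libraries of COL8A1 and COL16A1 differed more than 4-fold from each other. Basement membrane collagen COL4A2 was lower, at 29.2 and 32.5 FPKM in the P_DT libraries against 56.4 and 72.4 FPKM in P_DMSO (-1.03 ± 0.15, adjusted p = 0.0043), as were COL13A1 at 0.0632 and 0.0392 against 3.41 and 5.85 FPKM and COL6A3 at 0.012 and 0.104 against 3.34 and 4.27 FPKM. COL6A1 at 86.1 and 100.4 against 51.5 and 82.2 FPKM did not pass. FN1, fibronectin, was left out of the fit because the authors' status marks its quantification as failed in an R library, and was at 34.9 and 34.5 FPKM in P_DT and 31.2 and 27.1 FPKM in P_DMSO.

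Of 16 matrix proteases and inhibitors 8 were higher and 4 lower, with 5 and 2 kept. Membrane-bound metalloproteinases were among the higher members: MMP15 was at 74 and 77 FPKM in the P_DT libraries against 0.533 and 0.839 FPKM in P_DMSO (5.51 ± 0.17, adjusted p = 3.0e-05). MMP17 was at 46.1 and 53.9 FPKM in the P_DT libraries against 3.6 and 8.13 FPKM in P_DMSO (2.97 ± 0.37, adjusted p = 0.0023). MMP14 was at 109 and 122 FPKM in the P_DT libraries against 26.1 and 47.4 FPKM in P_DMSO (1.68 ± 0.29, adjusted p = 0.0074). The MMP14 call ended without P_DT 2 (adjusted p = 0.059). ADAM12, a disintegrin metalloproteinase, was at 12.3 and 8.14 FPKM in the P_DT libraries against 0.952 and 0.929 FPKM in P_DMSO (2.51 ± 0.31, adjusted p = 0.0021). The urokinase receptor PLAUR was lower, at 11.2 and 12.8 FPKM in the P_DT libraries against 64.9 and 63.7 FPKM in P_DMSO (-2.33 ± 0.15, adjusted p = 0.00017), and so was SERPINE2, a protease inhibitor, at 233 and 246 FPKM in the P_DT libraries against 1274 and 939.6 FPKM in P_DMSO (-2.19 ± 0.16, adjusted p = 0.00031). The metalloproteinase inhibitor TIMP3, at 97.5 and 91.1 against 101 and 114 FPKM, did not pass.

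Integrins and laminins gave 6 higher and 5 lower of 20, with 3 and 3 kept. Their share called was 55%, against 26.2% of all genes. ITGA4, the alpha subunit of the VCAM1 receptor, was at 38.1 and 30.7 FPKM in the P_DT libraries against 9.81 and 8.69 FPKM in P_DMSO (1.78 ± 0.17, adjusted p = 0.00085). ITGAV was at 38.9 and 35.7 FPKM in the P_DT libraries against 16.1 and 11.8 FPKM in P_DMSO (1.37 ± 0.18, adjusted p = 0.0025). The partner that forms the vitronectin receptor with ITGAV moved against it, and ITGB3 was at 1.92 and 2.32 FPKM in the P_DT libraries against 21.3 and 28 FPKM in P_DMSO (-3.03 ± 0.19, adjusted p = 0.00016). ITGB4, of the laminin receptor of hemidesmosomes, was at 15.1 and 18.8 FPKM in the P_DT libraries against 134 and 139.7 FPKM in P_DMSO (-2.95 ± 0.18, adjusted p = 0.00016). ITGA3 was at 65.3 and 60.8 FPKM in the P_DT libraries against 167 and 239 FPKM in P_DMSO (-1.65 ± 0.20, adjusted p = 0.0021). ITGB1 rose by less, at 174 and 162 FPKM in the P_DT libraries against 125 and 113 FPKM in P_DMSO, and lost its call without P_DT 1 (adjusted p = 0.14) and without P_DT 2 (adjusted p = 0.089). ITGA6 at 58.9 and 53.8 against 69.2 and 62.3 FPKM did not pass.

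Keratins fell in 5 of 8 and rose in none, 3 of them kept. KRT81 was at 1.68 and 1.84 FPKM in the P_DT libraries against 123 and 175 FPKM in P_DMSO (-5.74 ± 0.22, adjusted p = 5.8e-05). KRT7 was at 1.82 and 0.411 FPKM in the P_DT libraries against 18.5 and 23.6 FPKM in P_DMSO (-3.45 ± 0.40, adjusted p = 0.0017). KRT80 was at 29.6 and 30.3 FPKM in the P_DT libraries against 85.8 and 123 FPKM in P_DMSO (-1.75 ± 0.20, adjusted p = 0.0015). KRT8, at 32.3 and 36.6 against 40.6 and 80.3 FPKM, did not pass. S100 proteins, small calcium-binding proteins, gave 4 higher and 3 lower of 11, and 6 lower without P_DMSO 1. With all libraries the share of S100 genes called was 63.6%, against 26.2% of all genes. S100A1 was at 172 and 196 FPKM in the P_DT libraries against 12.4 and 21.5 FPKM in P_DMSO (3.41 ± 0.41, adjusted p = 0.0020). S100B was at 76.1 and 70.7 FPKM in the P_DT libraries against 8.08 and 9.85 FPKM in P_DMSO (2.91 ± 0.20, adjusted p = 0.00023). S100A16 was lower, at 139 and 144 FPKM in the P_DT libraries against 441 and 633 FPKM in P_DMSO (-1.89 ± 0.19, adjusted p = 0.00099), and S100P was at 0 and 0.512 FPKM in the P_DT libraries against 9.4 and 11.4 FPKM in P_DMSO (-3.21 ± 0.33, adjusted p = 0.0012). S100A6 had 1858 and 2407 FPKM in the P_DT libraries against 2037 and 8533 FPKM in P_DMSO, a 4-fold gap within P_DMSO, and did not pass.

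Several BMP targets rose while several ligands and antagonists fell. Of 20 members of the BMP and TGF-beta list 9 were higher and 6 lower, with 4 and 5 kept. Of the ID genes, BMP targets that block helix-loop-helix factors, ID3 (chromosome 1, 23557918 to 23559794) was at 277 and 324 FPKM in the P_DT libraries against 3.17 and 4.51 FPKM in P_DMSO (5.97 ± 0.19, adjusted p = 3.3e-05). ID1 was at 159 and 191 FPKM in the P_DT libraries against 17.9 and 20.9 FPKM in P_DMSO (3.11 ± 0.15, adjusted p = 9.4e-05). Levels of ID3 and ID1 in a further group of P cells, nearer to P_DT, are given at the end. ID2 was at 8.02 and 8.04 FPKM in the P_DT libraries against 0.314 and 0.431 FPKM in P_DMSO (2.72 ± 0.43, adjusted p = 0.0057). BAMBI, a decoy receptor induced by the pathway, was at 17.6 and 19.1 FPKM in the P_DT libraries against 4.58 and 6.58 FPKM in P_DMSO (1.57 ± 0.22, adjusted p = 0.0034). Secreted antagonists fell, FST, follistatin, at 7.97 and 7.63 FPKM in the P_DT libraries against 64.6 and 52.7 FPKM in P_DMSO (-2.75 ± 0.22, adjusted p = 0.00037). NOG, noggin, was at 0.313 and 0.466 FPKM in the P_DT libraries against 4.03 and 7.5 FPKM in P_DMSO (-2.24 ± 0.33, adjusted p = 0.0045). The ligand INHBA was also lower, at 7.08 and 6.43 FPKM in the P_DT libraries against 57.5 and 65.1 FPKM in P_DMSO (-3.0 ± 0.14, adjusted p = 8.6e-05). BMP2 was at 2.97 and 3.08 FPKM in the P_DT libraries against 12.3 and 14.5 FPKM in P_DMSO (-1.83 ± 0.21, adjusted p = 0.0016). GDF15 (chromosome 19, 18374731 to 18389176), a stress-induced member of the superfamily, was at 0.61 and 1.14 FPKM in the P_DT libraries against 133 and 306 FPKM in P_DMSO (-6.77 ± 0.37, adjusted p = 0.00013). SMAD7, the inhibitory SMAD of TGF-beta, was at 4.2 and 4.16 against 5.02 and 5.04 FPKM and did not pass.

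Chaperones rose more often than they fell. Of 20 heat shock genes 9 were higher and 1 lower (median 0.66), with 5 and 1 kept, and 13 were higher once GC and length trends were removed. HSPA8, the constitutive HSP70, was at 736 and 742 FPKM in the P_DT libraries against 315 and 240.3 FPKM in P_DMSO (1.42 ± 0.16, adjusted p = 0.0014). HSP90AA1 was at 317 and 328 FPKM in the P_DT libraries against 169 and 152 FPKM in P_DMSO (1.01 ± 0.12, adjusted p = 0.0020) and the cochaperone DNAJA1 at 152 and 158 FPKM in the P_DT libraries against 81 and 68.2 FPKM in P_DMSO (1.05 ± 0.13, adjusted p = 0.0025). HSPA1A, at 13.9 and 17.4 FPKM in the P_DT libraries against 3.56 and 5.64 FPKM in P_DMSO (1.59 ± 0.23, adjusted p = 0.0041), shares nearly all its sequence with HSPA1B, at 8.81 and 9.83 against 3.31 and 6.65 FPKM, which did not pass, so that their split is uncertain. The mitochondrial chaperone HSPA9 was lower, at 72.8 and 73.3 FPKM in the P_DT libraries against 272 and 189 FPKM in P_DMSO (-1.62 ± 0.18, adjusted p = 0.0014). The endoplasmic reticulum chaperone HSPA5, at 203 and 215 against 186 and 171 FPKM, and HSF1, at 35.1 and 41.8 against 32.3 and 44.9 FPKM, did not pass.

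Redox genes showed no common direction. Of 22 NRF2 targets 4 were higher and 3 lower, or 31.8% called, near the 26.2% of all genes. HMOX1, heme oxygenase, was at 17 and 21.6 FPKM in the P_DT libraries against 3.94 and 5.13 FPKM in P_DMSO (1.87 ± 0.26, adjusted p = 0.0032). TXN, thioredoxin, was lower, at 137 and 166 FPKM in the P_DT libraries against 467 and 281 FPKM in P_DMSO (-1.26 ± 0.24, adjusted p = 0.010). The TXN call ended without P_DT 1 (adjusted p = 0.078), and NQO1 at 98.3 and 107 against 74.9 and 89 FPKM did not pass. Of 10 metallothioneins 2 were tested, and MT2A fell, at 202 and 243 FPKM in the P_DT libraries against 931 and 1061 FPKM in P_DMSO (-2.16 ± 0.16, adjusted p = 0.00029), while MT1X at 24.5 and 31 against 46.8 and 22.6 FPKM did not pass. Among 15 drug efflux and xenobiotic genes 3 were higher and 4 lower, or 46.7% called, against 26.2% of all genes. CYP1B1, a cytochrome of estrogen and xenobiotic metabolism, was at 30.5 and 27.5 FPKM in the P_DT libraries against 1.28 and 2.66 FPKM in P_DMSO (3.37 ± 0.27, adjusted p = 0.00042). ABCC3, an efflux pump, was at 1.89 and 2.43 FPKM in the P_DT libraries against 9.85 and 12.9 FPKM in P_DMSO (-1.97 ± 0.26, adjusted p = 0.0027). ALDH1A3, a retinaldehyde dehydrogenase, was at 57.9 and 54.4 FPKM in the P_DT libraries against 154 and 160.3 FPKM in P_DMSO (-1.47 ± 0.15, adjusted p = 0.00096).

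Of 21 FOXO and PI3K-AKT genes 4 were higher and 1 lower (23.8% called). PIK3R1, the p85 regulatory subunit, was at 31.3 and 24.8 FPKM in the P_DT libraries against 3.86 and 3.38 FPKM in P_DMSO (2.64 ± 0.42, adjusted p = 0.0058), and lost its call without P_DT 1 (adjusted p = 0.053). SESN3, a FOXO target, was at 9.11 and 7.25 FPKM in the P_DT libraries against 0.715 and 0.813 FPKM in P_DMSO (2.37 ± 0.24, adjusted p = 0.00096). PIK3R3, another regulatory subunit, was at 6.7 and 6.21 FPKM in the P_DT libraries against 1.42 and 1.15 FPKM in P_DMSO (1.71 ± 0.25, adjusted p = 0.0039). TXNIP, which restrains glucose uptake, stood at 530.4 and 529.6 FPKM in the P_DT libraries against 508 and 451 FPKM in P_DMSO and did not pass.

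Of 13 KLF factors 4 were lower and 2 higher. The shares called were 46.2% for these, 41.2% for the WNT list and 42.9% for the Notch list, against 26.2% of all genes. KLF5 was at 33.9 and 31.6 FPKM in the P_DT libraries against 122 and 115 FPKM in P_DMSO (-1.83 ± 0.13, adjusted p = 0.00029). KLF9 was at 46.5 and 45.1 FPKM in the P_DT libraries against 10.9 and 10.9 FPKM in P_DMSO (1.97 ± 0.16, adjusted p = 0.00045). KLF4, at 11.1 and 11.5 against 5.5 and 11.9 FPKM, did not pass. The WNT list gave 3 higher and 4 lower of 17, of which 1 was kept, the secreted DKK3 at 105 and 114 FPKM in the P_DT libraries against 11.3 and 10.1 FPKM in P_DMSO (3.24 ± 0.17, adjusted p = 0.00010). WNT5A, the noncanonical ligand, was at 30.8 and 25.9 FPKM in the P_DT libraries against 10.2 and 10.8 FPKM in P_DMSO (1.34 ± 0.25, adjusted p = 0.010), and lost its call without P_DT 1 (adjusted p = 0.076). In the Notch list, 3 higher and 3 lower of 14, the receptor NOTCH2 was at 52.9 and 44 FPKM in the P_DT libraries against 14.3 and 16.5 FPKM in P_DMSO (1.59 ± 0.15, adjusted p = 0.00086) and the target HEY1 at 15.3 and 16.4 FPKM in the P_DT libraries against 4.97 and 3.29 FPKM in P_DMSO (1.74 ± 0.21, adjusted p = 0.0020), while the ligand JAG1 was lower at 5.0 and 4.94 FPKM in the P_DT libraries against 12.3 and 13.7 FPKM in P_DMSO (-1.23 ± 0.16, adjusted p = 0.0029). NOTCH1 at 16.2 and 14.1 against 5.08 and 10.4 FPKM did not pass.

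Of 24 histone demethylases and methyltransferases 3 were lower and none higher (12.5% called, against 26.2% of all genes), and 8 were higher without P_DMSO 2. KDM1A, which encodes LSD1, was at 41.1 and 43.3 FPKM in the P_DT libraries against 56.5 and 55.2 FPKM in P_DMSO (-0.40 ± 0.12, adjusted p = 0.046). That call ended without P_DT 1 (adjusted p = 0.20), without P_DT 2 (adjusted p = 0.13) and without P_DMSO 1 (adjusted p = 0.052). It also ended with the 4 libraries alone (adjusted p = 0.20) and on a TPM scale (adjusted p = 0.23), and without the filter on low values or without the trend and robust options of limma. KDM7A was the kept member, at 2.93 and 2.15 FPKM in the P_DT libraries against 9.21 and 8.92 FPKM in P_DMSO (-1.52 ± 0.19, adjusted p = 0.0022), and EZH2, the Polycomb methyltransferase, was at 11.2 and 12.5 FPKM in the P_DT libraries against 20.3 and 18.7 FPKM in P_DMSO, and lost its call without P_DT 1 (adjusted p = 0.092) and without P_DT 2 (adjusted p = 0.056). Of 18 histone deacetylases and sirtuins 3 were higher and 1 lower (22.2% called). HDAC5, at 27.8 and 29.6 FPKM in the P_DT libraries against 10.6 and 12.3 FPKM in P_DMSO (1.26 ± 0.16, adjusted p = 0.0024), was the one kept. Of 11 ion channel genes 5 were lower and none higher (45.5% called), with KCNN4, a calcium-activated potassium channel, at 16.4 and 16.8 FPKM in the P_DT libraries against 53.7 and 77.2 FPKM in P_DMSO (-1.89 ± 0.26, adjusted p = 0.0035). Cancer-testis antigens gave 1 higher and 1 lower of 13 (15.4% called, below the 26.2% of all genes), and MAGEA3, at 74.3 and 72.4 against 68.2 and 73.3 FPKM, did not pass.

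**Figure D3:**
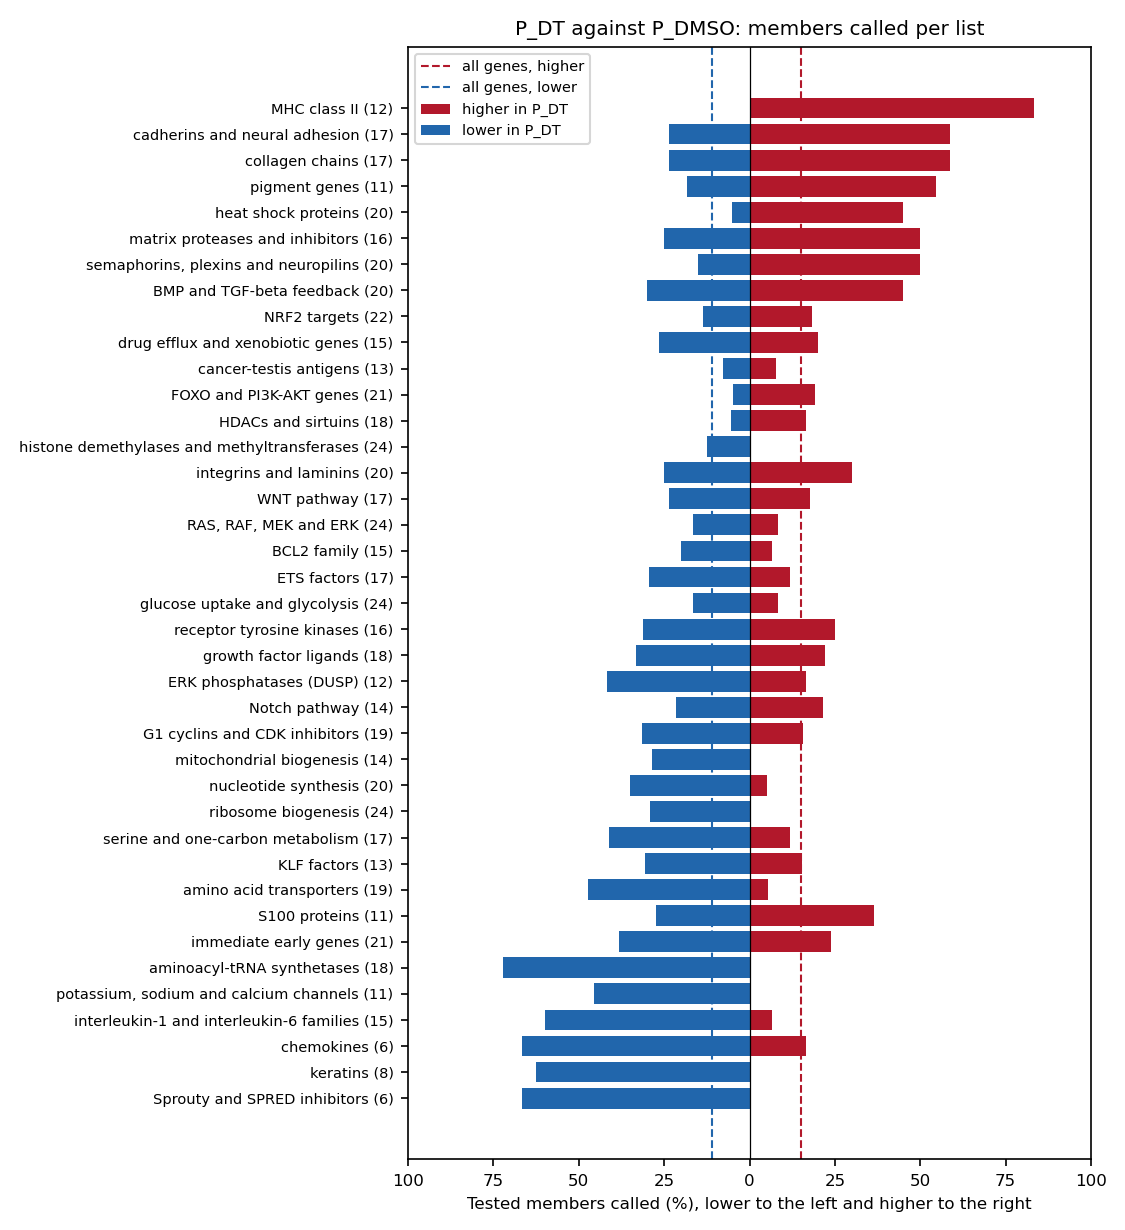
Share of tested members called lower (left, blue) and higher (right, red) in P_DT for the 39 lists with at least 5 tested members, ordered by median difference, with the number tested in brackets. Dashed lines mark the shares over all genes, 11.1% lower and 15% higher, and the MHC class II list is at the top and the Sprouty and SPRED inhibitors at the bottom.

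The 15 largest rises and 15 largest falls among called protein-coding genes that lay 2-fold apart in all pairs were chosen by that separation, so their values are a description. Rises not described so far were led by MOXD1, a monooxygenase, at 134 and 136 FPKM in the P_DT libraries against 0.372 and 1.85 FPKM in P_DMSO. OLFML2A was at 147 and 148 FPKM in the P_DT libraries against 1.03 and 1.79 FPKM in P_DMSO. CCN3, a matricellular protein, was at 236 and 241 FPKM in the P_DT libraries against 6.87 and 7.08 FPKM in P_DMSO. Transcription factors took 3 places: NFATC2, the calcineurin-controlled factor, was at 56.8 and 48.7 FPKM in the P_DT libraries against 1.64 and 2.12 FPKM in P_DMSO, MAF at 56.9 and 58.3 FPKM in the P_DT libraries against 1.47 and 3.84 FPKM in P_DMSO and the zinc finger factor ZNF536 at 21.4 and 20.7 FPKM in the P_DT libraries against 0.15 and 0.293 FPKM in P_DMSO. GASK1B was at 23.3 and 17.7 FPKM in the P_DT libraries against 0.375 and 0.197 FPKM in P_DMSO. PTN, the growth factor pleiotrophin, was at 19.2 and 17.9 FPKM in the P_DT libraries against 0.259 and 0.159 FPKM in P_DMSO. For each of these the P_DT libraries were close together and the P_DMSO libraries were at 8 FPKM or less.

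Among the falls, ESM1, an endothelial proteoglycan, was at 2.27 and 1.98 FPKM in the P_DT libraries against 203 and 213 FPKM in P_DMSO. NT5E, the ectonucleotidase CD73, was at 1.57 and 1.73 FPKM in the P_DT libraries against 124 and 106 FPKM in P_DMSO. CD55, which protects cells from complement, was at 8.43 and 8.22 FPKM in the P_DT libraries against 184 and 148 FPKM in P_DMSO. These 3 encode secreted or surface proteins, and the same holds for several of the rest. The receptor FCMR was at 0.876 and 2.07 FPKM in the P_DT libraries against 61.8 and 57.6 FPKM in P_DMSO. OSCAR was at 0.619 and 0.803 FPKM in the P_DT libraries against 21.1 and 43.8 FPKM in P_DMSO. For FCMR and OSCAR, levels in a further group of P cells, nearer to P_DT, are given at the end. VGF, a neuropeptide precursor, was at 3.51 and 3.43 FPKM in the P_DT libraries against 80.2 and 199 FPKM in P_DMSO. SLC14A1, a urea transporter, was at 1.9 and 2.15 FPKM in the P_DT libraries against 45.5 and 50.4 FPKM in P_DMSO. SMOC1, a matricellular protein that binds BMPs, was at 1.78 and 0.573 FPKM in the P_DT libraries against 33.5 and 44.5 FPKM in P_DMSO. TMEM158, a Ras-induced gene, was at 0.839 and 0.996 FPKM in the P_DT libraries against 52.2 and 105 FPKM in P_DMSO. C19orf33 was at 14.8 and 19.6 FPKM in the P_DT libraries against 296 and 404 FPKM in P_DMSO. For VGF, TMEM158, OSCAR and GDF15 the P_DMSO libraries differed about 2-fold or more, with P_DMSO 2 the higher.

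**Figure D4:**
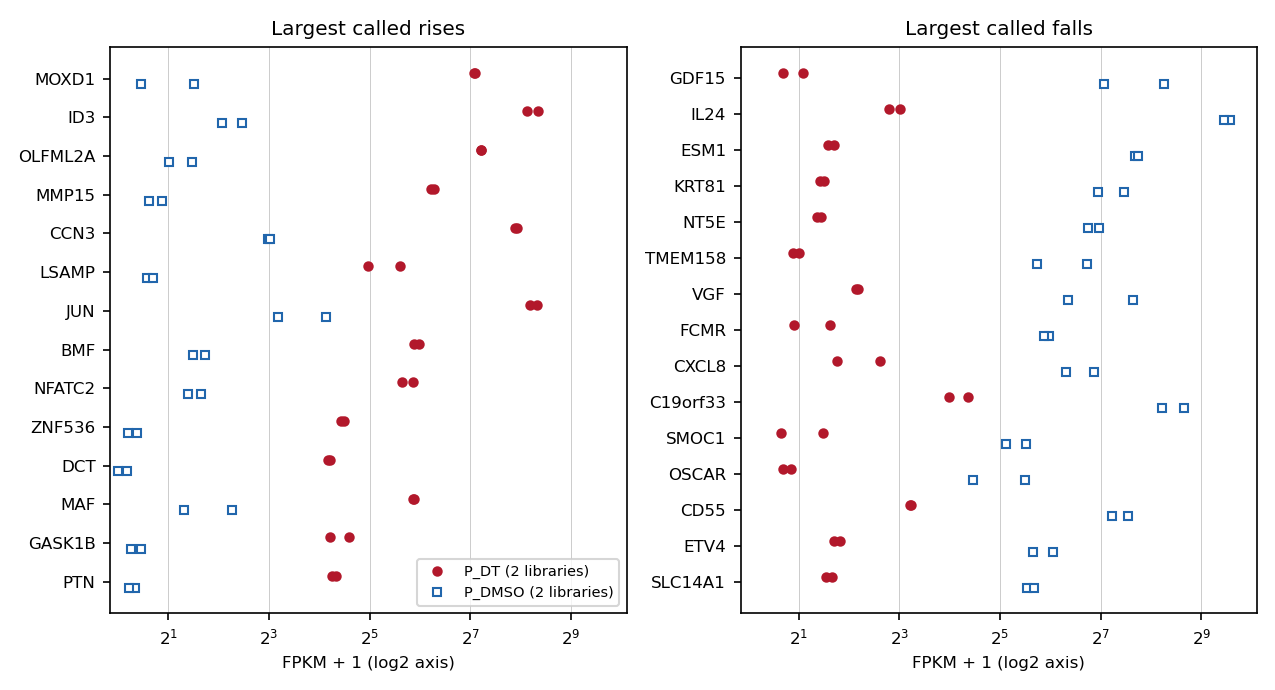
FPKM + 1 (log2 axis) of each library for the genes reported among the largest called rises and falls, P_DT as filled circles and P_DMSO as open squares. The groups do not overlap for any gene shown, as the rule that chose them requires, and the P_DMSO squares spread more than the P_DT circles for MOXD1, MAF, VGF and GDF15.

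Some genes were at or near 0 FPKM in one group and clearly present in the other. By a rule of 0.5 FPKM or less in both libraries of one group and 5 FPKM or more in both of the other, 31 genes were on in P_DT alone and 19 in P_DMSO alone. Leaving out any 1 library gave 112 to 119 genes in all, but that drops a condition of the rule, so the count can only rise. Besides ZNF536, GASK1B, PTN, DCT and PCDH7, those on in P_DT at the highest levels were TCN1, a vitamin B12 carrier, at 16.3 and 15.4 FPKM in the P_DT libraries against 0.33 and 0.236 FPKM in P_DMSO, the helix-loop-helix factor ATOH8 at 13.5 and 15.2 FPKM in the P_DT libraries against 0 and 0.13 FPKM in P_DMSO. HSPB3, a small heat shock protein, was at 12.2 and 17 FPKM in the P_DT libraries against 0 and 0 FPKM in P_DMSO. CLPSL1 was at 14.3 and 10.9 FPKM in the P_DT libraries against 0 and 0 FPKM in P_DMSO. Those on in P_DMSO included LCN2, the siderophore-binding lipocalin, at 0 and 0 FPKM in the P_DT libraries against 8.94 and 23.8 FPKM in P_DMSO. CCNA1, a cyclin A, was at 0.317 and 0.195 FPKM in the P_DT libraries against 14.8 and 13.5 FPKM in P_DMSO. THSD4 was at 0.232 and 0.318 FPKM in the P_DT libraries against 9.89 and 14.3 FPKM in P_DMSO. Among noncoding transcripts LINC00973 was at 0 and 0.19 FPKM in the P_DT libraries against 32.7 and 28.1 FPKM in P_DMSO. The pseudogene CKS1BP3, at 0 and 0 FPKM in the P_DT libraries against 59.5 and 33.3 FPKM in P_DMSO, can draw reads from its parent gene CKS1B. AC008569.1, at 27.7 and 10.9 FPKM in the P_DT libraries against 0 and 0 FPKM in P_DMSO, is an antisense transcript, and the strand setting of the quantification is not given in the sources used here.

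The response in P was also compared with that in the R line, where the same drugs were set against their own vehicle. The difference of the 2 responses was called for 2323 genes (14.9%), 1264 with P above R (8.11%) and 1059 with P below R (6.8%). After quantile normalization the split was 1082 above and 1289 below, and on a TPM scale 2222 above and 813 below. Without P_DT 1 it was called for 826 genes, without P_DT 2 for 812 and without P_DMSO 2 for 4683. Of the 41 ERK-related, lineage and largest-change genes, 36 had a called difference, which for the 30 largest changes is in part a consequence of choosing them on P. For EGR1 no difference was called: it stood at 1.05 and 0.546 FPKM in the R_DT libraries against 7.23 and 6.64 FPKM in R_DMSO, a difference between lines of -0.37 ± 0.53 (adjusted p = 0.68), with a standard error that leaves room for a difference of 1 log2 unit. FOSL1, at 69.5 and 79.4 FPKM in the R_DT libraries against 112 and 104 FPKM in R_DMSO, differed by -1.48 ± 0.58 (adjusted p = 0.13), and MITF, at 32.5 and 54.2 FPKM in the R_DT libraries against 25.5 and 23.8 FPKM in R_DMSO, by 1.21 ± 0.40 (adjusted p = 0.089), neither of them called. KDM1A (-0.48 ± 0.17, adjusted p = 0.097) and SOX10 (0.89 ± 0.25, adjusted p = 0.052) were not called either. SOX10 was at 0 and 0.163 FPKM in the R_DT libraries and at 0 FPKM in R_DMSO, so its difference is largely the P response.

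DUSP6 fell in both lines but by more in P: it was at 8.47 and 7.13 FPKM in the R_DT libraries against 32.9 and 35.6 FPKM in R_DMSO (-2.01, adjusted p = 0.0021), and the lines differed by -1.15 ± 0.22 (adjusted p = 0.018). CCND1 and MYC fell in P and were not called in R. CCND1 was at 103 and 105 FPKM in the R_DT libraries against 75.3 and 69.8 FPKM in R_DMSO, a difference between lines of -3.08 ± 0.19 (adjusted p = 0.00056). MYC was at 14.1 and 18.4 FPKM in the R_DT libraries against 9.48 and 9.47 FPKM in R_DMSO, a difference of -2.85 ± 0.39 (adjusted p = 0.0064). For GDF15 and KRT81 the 2 lines moved in opposite directions. GDF15 was at 1072 and 1122 FPKM in the R_DT libraries against 321 and 250.3 FPKM in R_DMSO (1.95, adjusted p = 0.033), and KRT81 at 51.9 and 61.8 FPKM in the R_DT libraries against 10.2 and 7.79 FPKM in R_DMSO (2.54, adjusted p = 0.0031). CXCL8, which fell in P, was not called in R, at 480.5 and 486 FPKM in the R_DT libraries against 423 and 461 FPKM in R_DMSO.

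Several genes that rose in P were near 0 in R with and without drug. ZNF536 was listed at 0 FPKM in all 4 R libraries. LSAMP was at 0.0153 and 0 FPKM in the R_DT libraries against 0.0327 and 0.0305 FPKM in R_DMSO. MAF was at 0.0562 and 0.0906 FPKM in the R_DT libraries against 0 and 0 FPKM in R_DMSO. ID3 rose in both lines, at 125 and 118 FPKM in the R_DT libraries against 37.5 and 30.0 FPKM in R_DMSO (1.82, adjusted p = 0.0059), and by 4.15 ± 0.27 (adjusted p = 0.00077) more in P. JUN, at 45.9 and 41 FPKM in the R_DT libraries against 24.6 and 20.3 FPKM in R_DMSO, differed by 3.67 ± 0.41 (adjusted p = 0.0032), and BMF, at 6.71 and 8.8 FPKM in the R_DT libraries against 4.46 and 2.78 FPKM in R_DMSO, by 3.39 ± 0.34 (adjusted p = 0.0022). Among the lists, the difference between lines was called for 12 of 18 synthetases, 9 of 12 class II genes and 15 of 17 adhesion genes, against 14.9% of all genes. SARS1 was at 182 and 179 FPKM in the R_DT libraries against 102 and 93.2 FPKM in R_DMSO, a difference between lines of -2.68 ± 0.18 (adjusted p = 0.00095). CIITA was at 6.97 and 7.42 FPKM in the R_DT libraries against 5.4 and 4.83 FPKM in R_DMSO, a difference of 1.55 ± 0.30 (adjusted p = 0.019). CD74 rose in R as well, at 107 and 109 FPKM in the R_DT libraries against 20.9 and 19.5 FPKM in R_DMSO (2.36, adjusted p = 0.0016). For CD74 no difference between lines was called (0.22 ± 0.24, adjusted p = 0.57). HLA-DRA and the adhesion genes NTM and CDH6 were at 0 FPKM in all 4 R libraries, so their difference restates the P response.

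**Figure D5:**
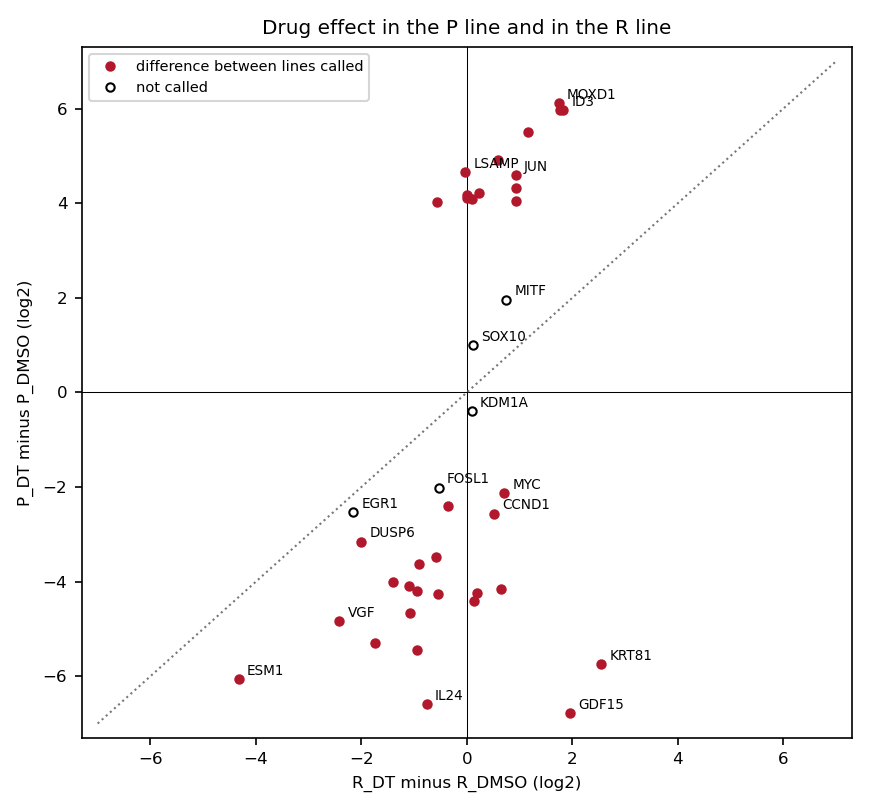
Difference P_DT minus P_DMSO (vertical axis) against R_DT minus R_DMSO (horizontal axis), both on the log2(FPKM+1) scale, for ERK-related, lineage and largest-change genes. Filled points have a called difference between the lines, the dotted line marks equal responses, and GDF15 and KRT81 lie below 0 in P and above 0 in R.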

How the data were processed

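Total RNA of A375 cells was sequenced. Per the submitters' processing notes, CASAVA 1.4, HISAT2 2.1.0, Cufflinks 2.2.1 and hg38 were used. The deposited values are FPKM, already scaled by the authors, with no counts, so no count model was run. The protocols describe a directional kit and an rRNA-depleted kit without assigning samples. The 60595 identifiers were matched to GENCODE 29 (58520 found), and 5296 symbols were replaced by current ones. FPKM columns that map to no sample of the series numbered 0. Deposited FPKM were transformed here to log2(FPKM + 1), with pseudocount 1. Genes with 1 FPKM or more in at least 2 of the 4 P_DT and P_DMSO libraries were kept, and 1 gene, FN1, was left out for its status. Limma 3.58.1 (R 4.3.3, trend and robust) fitted the 8 libraries of the P_DT, P_DMSO, R_DT and R_DMSO groups together, with adjusted p over all 15577 genes at a threshold of 0.05. Figures and summaries used Python 3.11.15.

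In simulated data on 15577 genes, this P_DT against P_DMSO test recovered 45% of 100 genes changed by 1 log2 unit and 96% of 100 changed by 2, and called 7 unchanged genes. The simulated noise was independent, with the same spread in every library for a given gene and no GC trend, unlike the P_DMSO libraries. The changed genes were drawn from those well above the floor. These figures thus do not give the recovery or the false calls in the real data. Depth was looked for in whole-fragment steps of low values. The share of low values near whole steps was 64.8% in P_DMSO 1, 68.4% in R_DMSO 2 and 38.1% to 53.3% in the other 6 libraries.

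The members of the 40 pathway lists (789 genes, 643 of them tested) and of the 6 marker lists were chosen with earlier results of these data known. Named genes are ERK targets and lineage genes, the 15 largest called rises and falls, up to 5 members of each list with the smallest adjusted p and the members that complete its account, the genes that differed most between the P_DMSO libraries, the genes on in one group alone, and the 10 largest changes in level each way. Some further list members were named after their values were seen, and some genes that enter the counts are not reported here. Alternatives varied the pseudocount, filter, scaling, libraries fitted and replicate block. Removal of GC and length trends was chosen after seeing the data.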

Additional observations from a re-analysis of the deposited data

Results flagged for a closer look

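The response to the drugs differed between the P and R lines, by the interaction test of limma, for 2323 genes. Only the ERK-related, lineage and largest-change genes are given here, so the order holds among them alone. The values below are the P response minus the R response on the log2(FPKM+1) scale. Since the largest changes were chosen on P, a wide gap for those genes is in part set by the choice.

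Among those genes below 0 the widest gaps were those of GDF15 (-8.72), KRT81 (-8.28) and IL24 (-5.83). The cytokine CXCL8 was at -4.53. The surface and secreted proteins CD55 (-4.81), NT5E (-4.50), SMOC1 (-4.44), FCMR (-3.58), OSCAR (-3.25), VGF (-2.41) and ESM1 (-1.74) followed, with C19orf33 at -3.72, TMEM158 at -3.56 and the transporter SLC14A1 at -2.61. Growth genes and ERK targets were CCND1 (-3.08), ETV4 (-3.00), ETV5 (-2.89), MYC (-2.85), SPRY4 (-2.72), SPRY2 (-2.04) and DUSP6 (-1.15). Some of these genes were also called lower in R, so their gaps are differences in the size of a fall. They are ESM1 (-4.33 in R), VGF (-2.42), DUSP6 (-2.01), TMEM158 (-1.73), SLC14A1 (-1.40), NT5E (-0.95) and IL24 (-0.76). GDF15 and KRT81 were called higher in R, and the rest were not called there. SMOC1 was at 0 FPKM in both R_DMSO libraries, so it could not fall in R. FCMR, at 5.15 and 6.14 FPKM in R_DMSO, could not fall there as far as in P. OSCAR, at 1.08 and 2.8 FPKM in R_DMSO, and SPRY4, at 2.56 and 2.21 FPKM, had little room to fall there.

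Among those genes above 0 the widest gaps were those of LSAMP (4.68), PTN (4.58), MOXD1 (4.37), MMP15 (4.35) and CCN3 (4.33). OLFML2A (4.20), ZNF536 (4.18), ID3 (4.15), DCT (4.09), NFATC2 (4.0) and MAF (3.98) came next, and JUN (3.67), BMF (3.39) and GASK1B (3.11) after them. For ZNF536 the R libraries were all at 0 FPKM, so that the gap equals the P response. LSAMP, DCT and MAF were near 0 FPKM in every R library and CCN3 at 1.17 FPKM or less, so their gaps are largely the P response too.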

How the results depend on the processing

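No gene called for P_DT against P_DMSO was called in the opposite direction under any alternative run, but the balance of higher to lower calls turned under some. Called genes (2343 higher, 1732 lower) were 2147 higher and 2316 lower after quantile normalization. Genes 2-fold apart in all pairs (893 higher, 606 lower) were then 790 higher and 802 lower. The difference between lines (1264 above, 1059 below) was then 1082 above and 1289 below, 374 above and 452 below without P_DT 1, and 372 above and 440 below without P_DT 2. Genes on or off (31 on, 19 off) were 46 on and 67 off without P_DMSO 1. Called list members (136 higher, 175 lower) were 168 higher and 151 lower on a TPM scale and 198 higher and 180 lower without P_DMSO 2. The number of called genes, 4075, ran from 1585 to 6424 when 1 library was left out and was 1447 when the 4 P libraries were fitted alone. It was 3569 with a pseudocount of 0.1, 3380 with a filter of 5 FPKM, 4463 after quantile normalization, 4486 on a TPM scale and 4758 with GC and length trends removed. The difference between lines, called for 2323 genes, ran from 812 to 4683 without 1 library, and genes 2-fold apart in all pairs, 1499, from 2011 to 3451. Genes on or off, 50, ran from 112 to 119 without 1 library, and were 22 with an upper limit of 0.1 FPKM for off and 191 with a lower limit of 2 FPKM for on. Counts of genes on or off and of genes apart in all pairs can only rise when a library is left out, since each rule asks for every library. Called list members, 311 of 643, ran from 183 to 378 without 1 library and were 176 with the 4 libraries alone. The 207 named genes of the lists, ERK targets and largest changes lost 49 calls with the 4 libraries alone, 46 without P_DT 1, 41 without P_DT 2 and at most 8 under each of the other alternatives. The cause of these shifts was not tested. The replicate numbers, 1 and 2, are not stated to pair samples, and the deviations of P_DT and P_DMSO correlated at 0.138 across genes. Those of P_DMSO and R_DMSO correlated at -0.382, so P_DMSO 1 deviated in part as R_DMSO 2 did. The remaining pairs of groups ran from -0.114 to 0.0574. Both vehicle groups enter the estimate of spread and the difference between lines, and what their libraries share was not tested. A fit with the replicate block called 3430 genes, 1651 genes for the difference between lines and 288 list members, and the KDM1A call ended in it (adjusted p = 0.083). The deposited FPKM give no depth, so the counting error of low values is known only as far as whole-fragment steps show it.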

Other observations

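The genes that differed most between the P_DMSO libraries were chosen by that difference. NDUFA3, a subunit of mitochondrial complex I, was at 137 and 139.9 FPKM in the P_DT libraries against 20.1 and 186 FPKM in P_DMSO. COX6B1, a subunit of cytochrome c oxidase, was at 431 and 511 FPKM in the P_DT libraries against 71.1 and 506 FPKM in P_DMSO, and LSM7, an Sm-like RNA-binding protein, at 126 and 135 FPKM in the P_DT libraries against 12.5 and 101 FPKM in P_DMSO. In these 3 P_DMSO 1 alone was low and P_DMSO 2 lay far closer to P_DT. UBE2E3, a ubiquitin-conjugating enzyme, went the other way at 66.2 and 76.3 FPKM in the P_DT libraries against 161 and 37.4 FPKM in P_DMSO, as did TERF1, a telomere-binding protein, at 10.4 and 14.6 FPKM in the P_DT libraries against 24.4 and 7.03 FPKM in P_DMSO. None of these 5 was called.

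Cells of the P line with a control shRNA (P_shCtrl, 2 libraries) were quantified in a table that was normalized separately, so no test was made and the levels across tables are only set side by side. Of all 15577 genes 43.16% lay nearer to P_DT than to P_DMSO in P_shCtrl. The share was 18.15% of the 865 genes that were called higher and 2-fold apart in all pairs, and 42.83% of the 593 that were called lower and 2-fold apart. At least 2-fold between P_shCtrl and P_DMSO lay 19.42% of these higher genes and 41.99% of these lower genes, against 17.22% of all genes. Some synthetases lay nearer to P_DT in P_shCtrl: YARS1 at 109 and 108 FPKM, WARS1 at 96.9 and 104 FPKM and IARS1 at 74.5 and 106 FPKM. ID1, at 182 and 150 FPKM, was also nearer to P_DT, and HSPA8, at 1209.5 and 1099 FPKM, lay above both groups. Among the largest falls IL24, at 31.7 and 25.4 FPKM in P_shCtrl, lay nearer to P_DT on the log2(FPKM+1) scale. So did FCMR, at 3.68 and 2.86 FPKM, and OSCAR, at 3.75 and 5.83 FPKM, and among the rises ID3, at 99.5 and 69.2 FPKM. GDF15, at 21.8 and 14.7 FPKM, lay about midway on that scale. DUSP6, at 99.3 and 97.8 FPKM, and CD74, at 183 and 146 FPKM, were nearer to P_DMSO. The same holds for the falls ESM1, at 142 and 128 FPKM, and KRT81, at 120 and 79.2 FPKM. What set P_shCtrl and P_DMSO apart was not tested. TXNIP was at 530.4 and 529.6 FPKM in the P_DT libraries against 508 and 451 FPKM in P_DMSO and at 7.03 and 6.8 FPKM in P_shCtrl, and in the R line at 552 and 534 FPKM in the R_DT libraries against 29.7 and 31.6 FPKM in R_DMSO.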
